A study of Oryza sativa with 18 samples.

Results

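The nuclear genes of light harvesting, the photosystems and photosynthetic electron transport were followed in rice leaves through 33 identifiers of the RAP-DB annotation, out of 37863 gene rows in the count table. They were chosen by a fixed list that names LHCA and LHCB antenna proteins, photosystem I and II subunits, plastocyanin, the Rieske protein, ferredoxin and ferredoxin-NADP reductase. All 33 rows were present and none had a count of 0 in any library. For description they were placed in 4 classes from prior knowledge of rice genes, with 14 antenna genes, 7 genes of photosystem II, 7 of photosystem I and 5 of electron transport. No source used here pairs these identifiers with names, so each is printed as an identifier with its class, and a wrong class is possible.

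The antenna proteins bind chlorophyll and pass the energy of absorbed light to the reaction centres. Photosystem II takes electrons from water, and the cytochrome complex with its Rieske protein, plastocyanin, photosystem I and ferredoxin carry them on to ferredoxin-NADP reductase, which makes NADPH for carbon fixation. Core subunits of the photosystems and of the cytochrome complex are encoded in the plastid, and the nuclear genes are known in leaves for high mRNA levels that follow light, the time of day and the state of the chloroplast.

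The libraries came from leaves of FKBP57 knockout and FKBP73 knockout lines and of wild type (Ningjing 4), with 3 biological replicates for each genotype under each condition, 18 in all. Both knocked-out genes encode FK506-binding proteins, known as peptidyl-prolyl isomerases, and the series title links them to salt tolerance. Salt plants had received 150 mM NaCl for 4 hours, and control plants stood in normal nutrient solution with no time given, so a difference in harvest time cannot be told apart from salt in any salt comparison. The labels do not say how many independent knockout lines were used, and the knockouts were not checked at their target genes here.

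Library totals ran from 27601098 to 39894394 counts. Values are CPM, counts per library total after scaling by the trimmed mean of M values (TMM), and are not corrected for gene length. Changes were called with edgeR's quasi-likelihood test over 25957 genes where the p adjusted by Benjamini and Hochberg was under 0.05. The 33 members, all of which passed the filter on low counts, took between 0.731% and 3.81% of a library's counts. The 5 leaf markers, genes of the Rubisco small subunit and Rubisco activase, summed to 4900 to 48300 CPM over the libraries. The 4 root markers summed to 4.31 to 19.2 CPM, of which Os02g0745100 held 3.47 to 18.7 CPM, and the other 3 were below 1 CPM in every library. Libraries of 1 group stood far apart for the members, as described next, so each comparison is also given with single libraries left out.

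**Figure D1:**
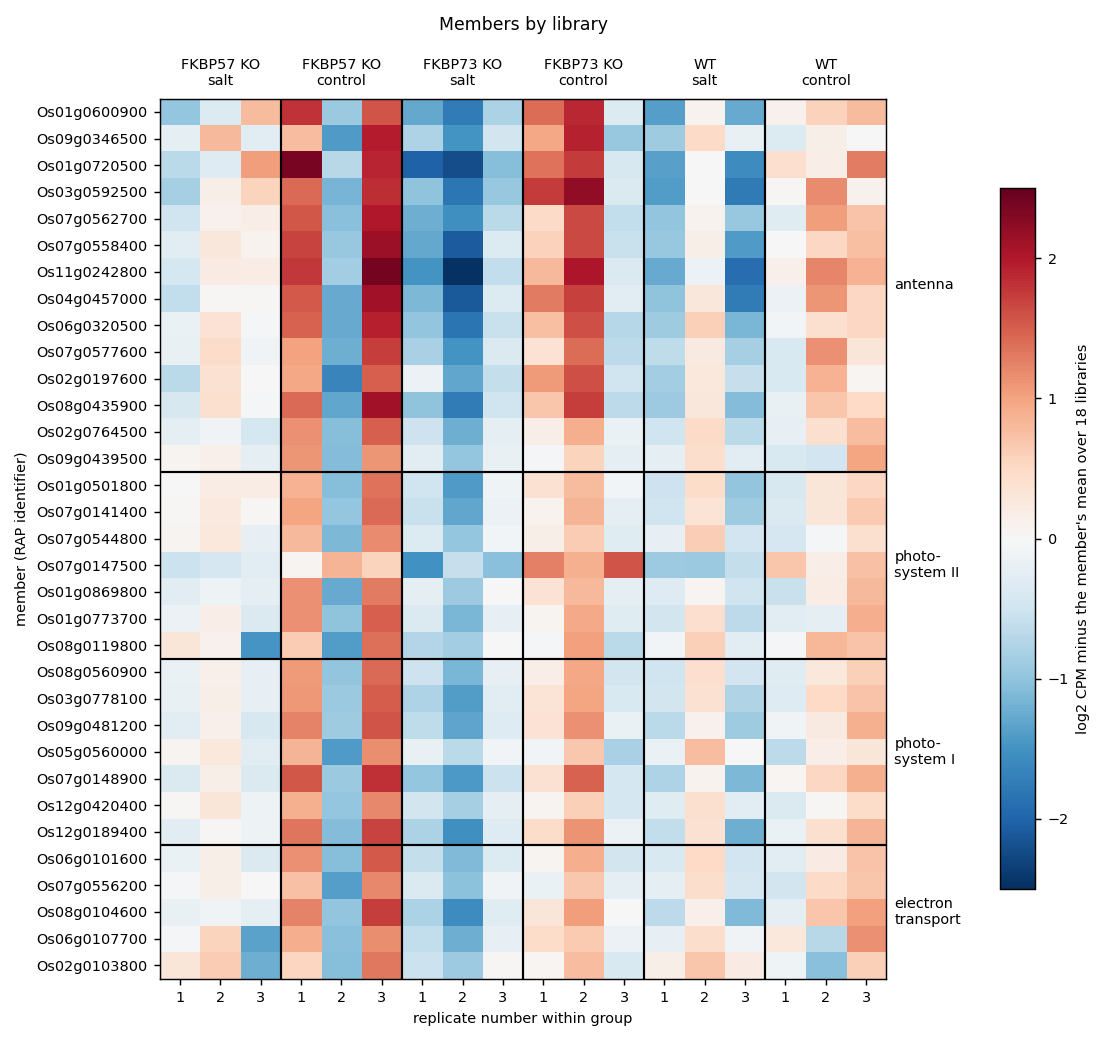
Log2 CPM of the 33 members (rows, by class) in the 18 libraries (columns), each row centred on its own mean. Red is above and blue below that mean. FKBP57 knockout control 2 is blue where controls 1 and 3 of that group are red, except in the row of Os07g0147500, where control 2 is red.

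Within groups the members moved together. In the FKBP57 knockout controls the summed CPM of the members was 37820, 8084 and 48910 in libraries 1, 2 and 3. In the FKBP73 knockout controls it was 21880, 35780 and 13580, and in the wild-type controls 13980, 21720 and 26810. Control 2 of the FKBP57 knockout, control 3 of the FKBP73 knockout and control 1 of wild type were thus as low as salt libraries. The sums under salt were 14830, 18530 and 16310 in the FKBP57 knockout, 10730, 6781 and 13680 in the FKBP73 knockout, and 11430, 21340 and 9860 in wild type. Wild-type salt 2 lay at the level of wild-type control 2.

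The order of the replicates was shared by nearly all members. FKBP57 knockout control 2 was the lowest of its group for 32 of 33 members, and control 3 the highest for 30. FKBP73 knockout control 2 was the highest of its group for 32 members and control 3 the lowest for 32. Wild-type salt 2 was the highest of its group for 32 members. The median ratio of the highest to the lowest library, after adding 0.5 CPM, was 5.97 for the members in the FKBP57 knockout controls, against 1.79 for all genes tested. It was 1.44 in the FKBP57 knockout salt libraries against 1.39 for all genes, 1.94 and 2.58 in the FKBP73 knockout under salt and control against 1.29 and 1.35, and 2.18 and 2.01 in wild type under salt and control against 1.33 and 1.62. Among the 2266 genes averaging 100 CPM or more the median ratio was 1.27 and 1.81 in the FKBP57 knockout under salt and control, 1.21 and 1.26 in the FKBP73 knockout and 1.25 and 1.58 in wild type. The members' median ratio was above both in every group, by least in FKBP57 knockout salt.

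Other leaf genes shared the order in part. In the FKBP57 knockout controls the leaf markers summed to 7040 CPM in the lowest library and 48300 CPM in the highest, and control 2 was the lowest for all 5. The 11 chlorophyll synthesis genes summed to 1810 and 7550 CPM in the lowest and the highest library, with control 2 the lowest for 9 of them and the highest for 1, Os04g0678700. Of 9 circadian clock genes control 2 was the lowest for 4 and the highest for 4, and their sum of 1370 to 4770 CPM was mostly Os08g0157600, with 1020 to 4180 CPM. Control 2 was also the lowest for both of the 2 GLK transcription factors described below, which summed to 247 to 782 CPM in this group. The part of all these genes in the spread of the members was not tested.

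**Figure D2:**
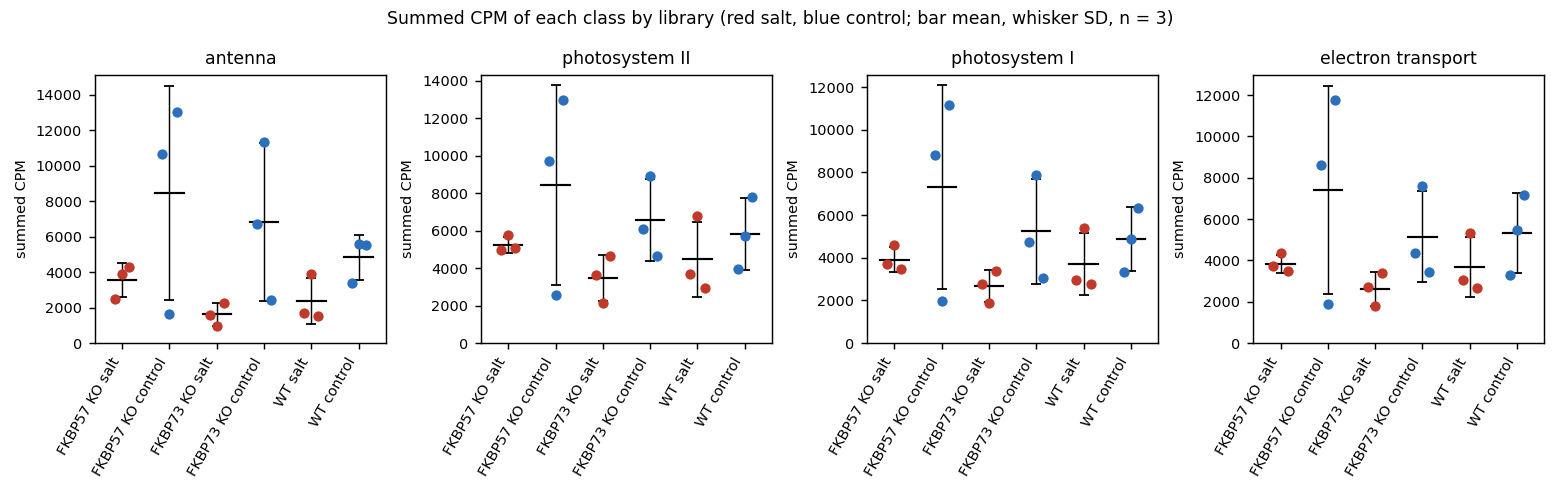
Summed CPM of each class (vertical axis, from 0) in each library, by genotype and condition, with the mean and SD of 3 libraries. The controls of the FKBP57 knockout spread from 1642 to 13040 CPM in the antenna class, and its control 2 lies among the salt libraries.

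Salt against control, averaged over the 3 genotypes, gave lower estimates for all 33 members, and 18 of them fell by the test. Of all genes tested, 22.5% were called lower and 20.3% higher in this comparison, and the 18 of 33 are 54.5% of the members. The members moved together, so these counts are not of independent genes. The median log2 fold change of the members was -0.92, against -0.07 for all genes. A lower value in whole leaves does not tell fewer photosynthetic cells from less mRNA per cell. By class 12 of 14 antenna genes, 4 of 7 photosystem I genes, 1 of 7 photosystem II genes and 1 of 5 electron transport genes were called lower, and none rose. The difference between classes was not tested, and 13 antenna, 5 photosystem I, 5 photosystem II and 2 electron transport genes had an unadjusted p under 0.05. The share of all genes at that unadjusted cut was not counted. At the adjusted cut 42.8% of all genes were called in either direction.

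The antenna genes held the lowest estimates. Os01g0720500, the antenna gene with the most reads and the lowest estimate, had 339, 433 and 1110 CPM under salt and 2800, 332 and 2030 CPM under control in the FKBP57 knockout. In the FKBP73 knockout it had 133, 117 and 259 CPM under salt and 1380, 1820 and 412 CPM under control, and in wild type 212, 541 and 181 CPM under salt and 721, 610 and 1320 CPM under control. Salt and control libraries did not overlap in the FKBP73 knockout or in wild type, and in the FKBP57 knockout control 2 was below all 3 salt libraries. Averaged over genotypes Os01g0720500 fell, with a log2 fold change at -1.93 (SE 0.43, edgeR adjusted p = 0.0022). Os11g0242800 also fell, at -1.93 (SE 0.43, edgeR adjusted p = 0.0023), then Os03g0592500 at -1.74, Os01g0600900 at -1.62 and Os04g0457000 at -1.6. The other 7 antenna genes that fell had estimates from -1.45 (Os07g0562700) to -0.87 (Os02g0764500). The median over the 14 antenna genes was -1.38. The antenna genes that did not pass were Os09g0346500, with -0.92 (adjusted p = 0.079), and Os09g0439500, with -0.48 (adjusted p = 0.17). Antenna genes form a family with near-identical copies, and the sources used here do not say how reads shared between copies were counted.

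The antenna class made up less of the members' total under salt by the median over libraries. Its 14 genes held 16.8%, 20.9% and 26.4% of the summed CPM of the 33 members in the FKBP57 knockout salt libraries, against 28.2%, 20.3% and 26.7% in its controls. In the FKBP73 knockout the share was 15%, 14.4% and 16.5% under salt, against 30.6%, 31.7% and 17.8% under control. In wild type it was 14.8%, 18.1% and 15.3% under salt, against 24.2%, 25.8% and 20.6% under control. The shares did not overlap between conditions in the FKBP73 knockout and in wild type, and they overlapped in the FKBP57 knockout. Over all libraries the median share was 16.5% under salt and 25.8% under control.

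**Figure D3:**
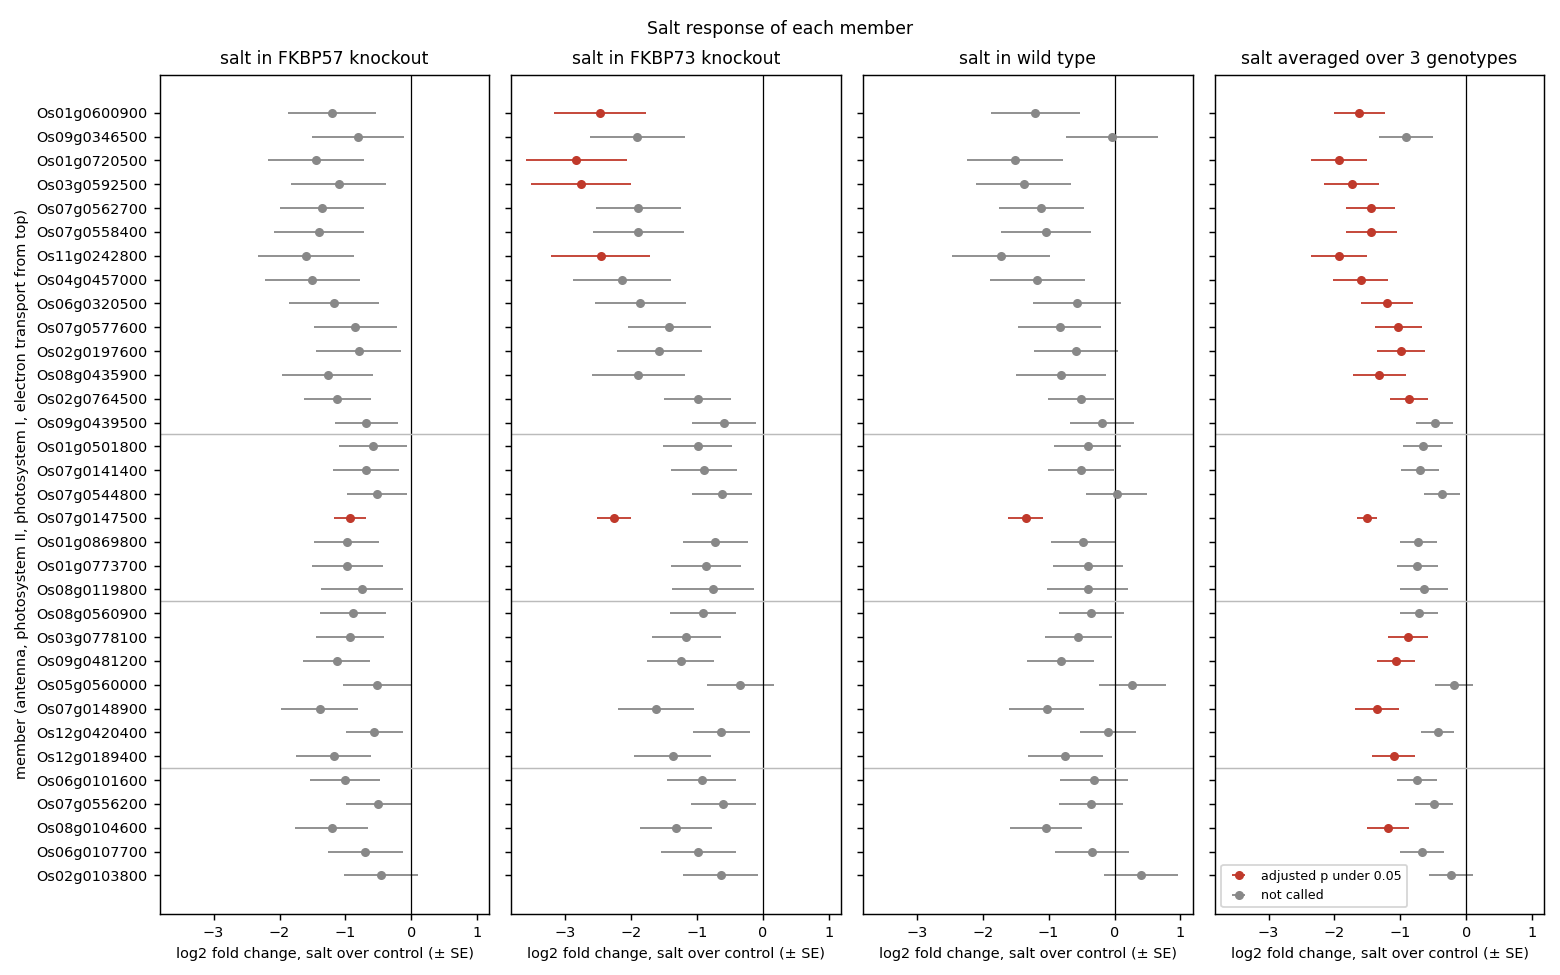
Log2 fold change of salt over control (horizontal axis, with SE) for the 33 members, by genotype and averaged. Red marks an adjusted p under 0.05. The averaged panel has 18 red members, 12 of them antenna genes, and Os07g0147500 is red in all panels.

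Among photosystem II genes, which include the water-splitting and core-associated subunits, the member with the most reads was Os01g0501800. It had 2140, 2450 and 2460 CPM under salt and 3950, 1040 and 5540 CPM under control in the FKBP57 knockout, and 1530, 810 and 2010 CPM under salt and 2820, 3770 and 2080 CPM under control in the FKBP73 knockout. In wild type it had 1520, 2980 and 1100 CPM under salt and 1650, 2670 and 3120 CPM under control. The conditions overlapped in the FKBP57 knockout and in wild type, and the averaged log2 fold change was -0.66 (SE 0.3, edgeR adjusted p = 0.086). The class median was -0.7, with estimates from -1.51 to -0.37.

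The exception was Os07g0147500, the photosystem II gene with the lowest estimate. It had 59.8, 64.5 and 72.1 CPM under salt and 91.1, 157 and 127 CPM under control in the FKBP57 knockout. It had 30.6, 58.1 and 42.2 CPM under salt and 208, 161 and 258 CPM under control in the FKBP73 knockout, and 46.3, 45.4 and 57.8 CPM under salt and 140, 96.8 and 145 CPM under control in wild type. All 9 salt libraries were below all 9 control libraries, which held for 1 of the 33 members and for 1.71% of all genes tested. Os07g0147500 fell by -1.51 (SE 0.15, edgeR adjusted p = 2.2e-06) averaged over genotypes. It was the only member called in wild type, at -1.35 (SE 0.26, edgeR adjusted p = 0.0021), and the only one called in the FKBP57 knockout, at -0.93 (SE 0.25, edgeR adjusted p = 0.039). In the FKBP73 knockout it fell by -2.26 (SE 0.26, edgeR adjusted p = 8.8e-05).

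Os07g0147500 also stood apart from the other members within groups, a feature singled out after its values were seen. The strand setting of the counting is unknown here, so reads of an overlapping gene on the other strand may be part of its count. In FKBP57 knockout control 2 it was 0.36 above the mean of its group on the log2 scale, where the deviations of the other 32 members ran from -2.05 to -1.33 with a median of -1.62. In FKBP73 knockout control 3 it deviated by 0.33, where the other members were all below their means, with a median of -0.69. In 13 of the 18 libraries its deviation had the opposite sign to the median of the other members. The deviations within a group cancel, so these libraries do not count independently. Some deviations were near their group mean, as in FKBP73 knockout control 1 with 0.02 against a median of -0.01. The standard error of Os07g0147500 in the averaged comparison, 0.15, was below those of the other 32 members, which ran from 0.25 to 0.43.

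**Figure D4:**
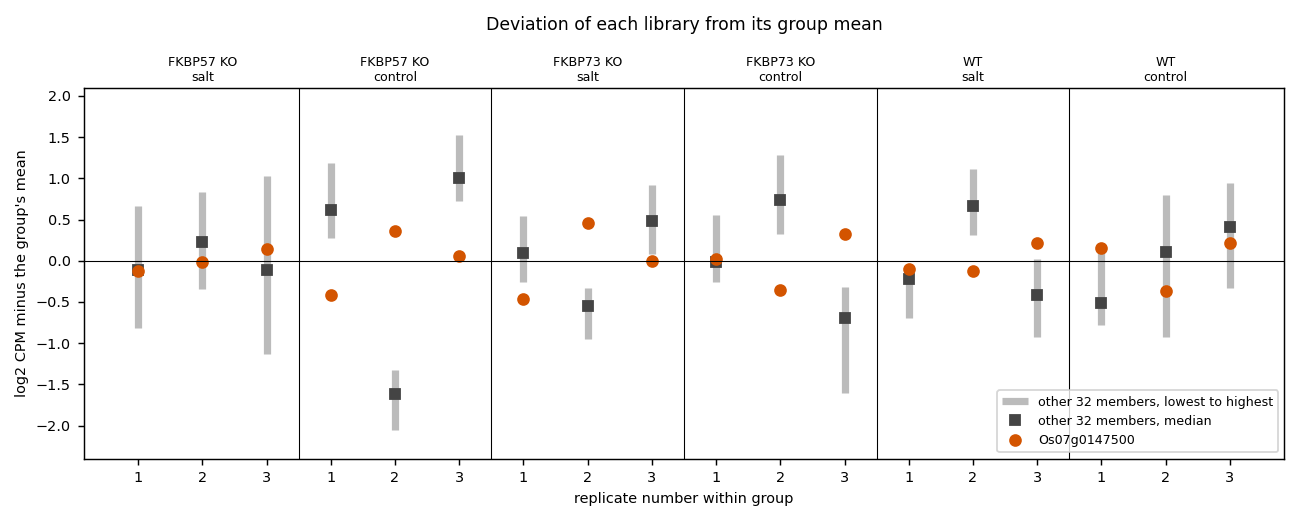
Deviation of each library's log2 CPM from the mean of its group (vertical axis) for Os07g0147500 (orange) and for the other 32 members (grey bar from lowest to highest, square at the median). In FKBP57 knockout control 2 the orange point is at 0.36 and the square at -1.62.

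Of the photosystem I genes Os07g0148900 had the lowest estimate. It had 303, 434 and 306 CPM under salt and 1150, 205 and 1380 CPM under control in the FKBP57 knockout, 199, 144 and 268 CPM under salt and 511, 1080 and 289 CPM under control in the FKBP73 knockout, and 230, 414 and 179 CPM under salt and 402, 562 and 723 CPM under control in wild type. Only the FKBP73 knockout was without overlap. Its averaged estimate was -1.35 (SE 0.33, edgeR adjusted p = 0.0048). Os12g0189400 (-1.1), Os09g0481200 (-1.07) and Os03g0778100 (-0.88) fell as well.

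The photosystem I gene with the most reads did not pass. Os12g0420400 had 869, 1050 and 783 CPM under salt and 1590, 436 and 1970 CPM under control in the FKBP57 knockout, 625, 480 and 731 CPM under salt and 904, 1300 and 630 CPM under control in the FKBP73 knockout, and 697, 1130 and 709 CPM under salt and 670, 877 and 1180 CPM under control in wild type. Its conditions overlapped in every genotype, and its estimate was -0.43 (SE 0.25, edgeR adjusted p = 0.17). Os05g0560000 had the estimate nearest 0 of all members, -0.19 (SE 0.29, edgeR adjusted p = 0.62), with 0.27 in wild type.

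In the electron transport class, which carries electrons between and beyond the photosystems, Os08g0104600 had 1050, 1130 and 1010 CPM under salt and 2820, 607 and 3960 CPM under control in the FKBP57 knockout. It had 692, 404 and 971 CPM under salt and 1480, 2460 and 1210 CPM under control in the FKBP73 knockout, and 758, 1300 and 557 CPM under salt and 1010, 1940 and 2420 CPM under control in wild type. It fell by -1.19 (SE 0.32, edgeR adjusted p = 0.0076) averaged over genotypes, with no overlap in the FKBP73 knockout. Os06g0101600, with the most reads of the class, had 1690, 2100 and 1490 CPM under salt and 4180, 911 and 5500 CPM under control in the FKBP57 knockout, 1260, 881 and 1510 CPM under salt and 2000, 3580 and 1380 CPM under control in the FKBP73 knockout, and 1470, 2700 and 1370 CPM under salt and 1560, 2180 and 3110 CPM under control in wild type. Its conditions overlapped in all 3 genotypes, and its estimate of -0.75 (SE 0.3) had an edgeR adjusted p of 0.058. Few reads fell on 3 members. Os08g0119800 of the photosystem II class was between 0.651 and 4.7 CPM over all libraries. In the electron transport class Os06g0107700 was between 2.2 and 12.6 CPM and Os02g0103800 between 4.21 and 24.5 CPM, where the other genes of the class averaged 1060 CPM or more. None of the 3 members with few reads passed the test, with estimates of -0.64, -0.67 and -0.23. Whether these rows hold all the expression of their genes was not tested.

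The 18 calls depended in part on single libraries, while the median of the members stayed between -1.09 and -0.73 with any 1 library left out. Without FKBP57 knockout control 2, 31 members were called lower, where 23.1% of all genes tested were. Over the other libraries left out in turn the count was between 13 and 23, where 18.6% to 24.3% of all genes were. Without the third libraries of FKBP57 knockout salt, FKBP57 knockout control and wild-type control together, which an earlier look at these data set apart, it was 10, where 25.6% of all genes were called lower, and the median was -0.62. Of the 18 calls, 10 held in every alternative run, 7 of them antenna genes, with Os07g0147500, Os07g0148900 and Os08g0104600.

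Genotype by genotype, few members passed. In the FKBP57 knockout 1 of 33 was called lower, where 1.68% of all genes were, and the median was -0.97 (-1.6 to -0.46 over members) against -0.1 for all genes. The median was -1.39 without control 2, -0.52 without control 3 and -0.41 without the 3 libraries. The 1 call, of Os07g0147500, ended without any 1 of the libraries control 2 (adjusted p = 0.1), control 3 (0.064), salt 1 (0.16), salt 2 (0.13) or salt 3 (0.062), in a fit of the groups compared alone (0.18), and without the 3 libraries together (0.056). Its log2 fold change was -0.71 without control 2 and between -1.01 and -0.87 in the other 6 of these fits. Without control 2, however, 9 members were called lower, where 5.38% of all genes were, among them Os07g0148900 (adjusted p = 0.021), Os08g0104600 (0.027) and Os06g0101600 (0.036). Salt and control did not overlap for 1 member, where 6.79% of all genes were lower without overlap.

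In the FKBP73 knockout 5 of 33 members fell, where 5.46% of all genes did, and the median was -1.25 (-2.83 to -0.34) against -0.03 for all genes. Without control 2 the median was -0.81. Beside Os07g0147500 these were the antenna genes Os01g0720500 (-2.83, SE 0.76, edgeR adjusted p = 0.022), Os03g0592500 (-2.76, SE 0.76, edgeR adjusted p = 0.024), Os01g0600900 (-2.47, SE 0.7, edgeR adjusted p = 0.027) and Os11g0242800 (-2.46, SE 0.75, edgeR adjusted p = 0.041). Os11g0242800 had 93.3, 47 and 172 CPM under salt and 457, 1060 and 203 CPM under control. Os03g0592500 had 143, 82.1 and 148 CPM under salt and 966, 1330 and 224 CPM under control. Os01g0600900 had 105, 76.1 and 148 CPM under salt and 676, 948 and 201 CPM under control. In all 4 antenna genes control 3 was the lowest control and lay nearest to the salt libraries. For 14 members the salt libraries were all below the controls, where 21.7% of all genes were. All 4 antenna calls ended without control 1 (adjusted p = 0.059 to 0.07), control 2 (0.072 to 0.18), salt 1 (0.079 to 0.14) or salt 2 (0.1 to 0.16). Their log2 fold changes were then -2.72 to -2.39, -2.4 to -1.66, -2.87 to -2.39 and -2.62 to -2.11. The call of Os11g0242800 also ended with the replicate number as a block (-2.41, adjusted p = 0.072). The call of Os03g0592500 also ended without salt 3 (-2.9, adjusted p = 0.053). Without control 3, 7 members were called, where 2.84% of all genes were called lower. DESeq2 called 12 members and 8.97% of all genes lower, and a fit of the FKBP73 knockout libraries alone called 13 members and 14.4% of all genes.

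In wild type 1 of 33 members was called, where 10.9% of all genes were called lower. The median was -0.55 (-1.72 to 0.4) against -0.06 for all genes, and it was -0.96 without salt 2, -0.37 without control 3 and -0.33 without salt 3. For 5 members the conditions were without overlap, where 17.2% of all genes were. These were Os07g0147500 and the antenna genes Os01g0720500 (-1.51, adjusted p = 0.14), Os11g0242800 (-1.72, adjusted p = 0.098), Os03g0592500 (-1.38, adjusted p = 0.17) and Os01g0600900 (-1.2, adjusted p = 0.2). DESeq2 and a fit of the wild-type libraries alone each called 2 members, Os07g0147500 and Os11g0242800 (adjusted p = 0.037 and 0.046 for the second), where they called 16% and 8.88% of all genes lower. The share of members called by edgeR in wild type alone was thus no higher than that of all genes.

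Whether the salt response of the members differed between genotypes was tested as a difference of responses. The estimate was most negative in the FKBP73 knockout for 27 members, in the FKBP57 knockout for 6 and in wild type for none. This order was not counted over all genes, and the members moved together, so these counts are not independent. For the FKBP73 knockout minus wild type the differences ran from -1.87 to -0.24 with a median of -0.62, against -0.01 for all genes. There edgeR called 0 members, with 1 at an unadjusted p under 0.05. DESeq2 called 0 members, where it called 0.0154% of all genes. The members' median was -0.17 without FKBP73 knockout control 2 and -0.22 without wild-type salt 2, and -0.39 without FKBP73 knockout salt 2. Intervals of 2 standard errors held 0 for 32 of 33 members. The member outside was Os07g0147500, at -0.91 (SE 0.36, edgeR adjusted p = 0.99). For the FKBP57 knockout minus wild type the differences ran from -0.87 to 0.41 with a median of -0.36, against -0.05 for all genes. Here edgeR called 0 members, with 0 at an unadjusted p under 0.05. DESeq2 called 0 members, where it called 0.1% of all genes. The sign of the members' median rested on single libraries, since it was 0.2 without FKBP57 knockout control 3, with 11 of 33 members negative, and 0.1 without wild-type salt 2, with 13 negative. It was -0.78 without FKBP57 knockout control 2 and -0.06 without the 3 libraries together. The standard errors of these differences were between 0.36 and 1.01, and edgeR called 0% of all genes in both tests. Both differences share the wild-type libraries. These libraries do not show that the responses were alike.

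No member was called between a knockout and wild type. Under control the FKBP57 knockout had higher estimates for 32 of 33 members, with a median of 0.57 against 0.06 for all genes, and 0 were called, where 0.204% of all genes were. The members moved together, so this count of signs is not of independent genes, and it was not made over all genes. Without FKBP57 knockout control 3, 9 members had lower estimates. No member had an unadjusted p under 0.05. DESeq2 called 0 members, where it called 0.412% of all genes. The groups overlapped for every member, where 2.39% of all genes were higher and 1.61% lower without overlap. The median was 0.98 without FKBP57 knockout control 2 and lay between 0.11 and 0.73 without each of the other 5 libraries. Under salt 0 members were called by edgeR and by DESeq2, where they called 0.304% and 1.43% of all genes. There 0 members had an unadjusted p under 0.05, and the median was 0.27. That median was 0.04 without wild-type salt 3, 0.08 without either FKBP57 knockout salt 2 or wild-type salt 1, and 0.67 without wild-type salt 2. Os07g0147500 was the 1 member without overlap, with 59.8 to 72.1 CPM in the knockout and 45.4 to 57.8 CPM in wild type, and its estimate was 0.39 (SE 0.25, edgeR adjusted p = 0.61). Of all genes 9.47% were higher without overlap there.

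For the FKBP73 knockout the median against wild type was 0.15 under control and -0.47 under salt, where all 33 estimates were negative. These signs are not independent, since the members moved together. edgeR called 0 members and 0% of all genes under both conditions. DESeq2 also called 0 members, where it called 0.0925% of all genes under control and 0.239% under salt. The members with an unadjusted p under 0.05 were 1 under control, Os07g0147500, and 0 under salt. Under control Os07g0147500 had 161 to 258 CPM in the knockout and 96.8 to 145 CPM in wild type, without overlap, and an estimate of 0.72 (SE 0.25, edgeR adjusted p = 1), where 2.66% of all genes were higher without overlap. Under salt Os02g0103800 of the electron transport class had 5.2 to 10 CPM in the knockout and 10.8 to 15.8 CPM in wild type, and an estimate of -0.78 (SE 0.57, edgeR adjusted p = 0.93), where 9.94% of all genes were lower without overlap. The median under control was -0.28 without FKBP73 knockout control 2 and -0.06 without wild-type control 1, so its sign rested on single libraries. The median under salt was -0.02 without wild-type salt 2, with 20 of 33 members negative, and -0.23 without FKBP73 knockout salt 2.

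Genes that make chlorophyll were set beside the members, since the antenna proteins bind it. Of 11 chlorophyll synthesis genes 8 fell and none rose under salt averaged over genotypes, with a median of -0.89, where 22.5% of all genes were called lower and 20.3% higher. The 2 GLK transcription factors, known as activators of photosynthesis genes, had -0.2 and -0.14 and did not pass. Of 9 circadian clock genes 4 rose and 1 fell (median 0.37), and of the 5 leaf markers 4 fell (median -1.08). Of the 3 root markers tested 2 fell. Of the 11 chlorophyll synthesis genes 1 fell in the FKBP57 knockout, where 1.68% of all genes did, 3 in the FKBP73 knockout, where 5.46% did, and 2 in wild type, where 10.9% did. Clock genes called were 0 in the FKBP57 knockout, 1 in the FKBP73 knockout and 2 in wild type. In either direction 6.32%, 14.3% and 24.5% of all genes were called there, and 42.8% averaged over genotypes. The harvest times of these libraries are not all given, and the part of clock genes in the members' values was not tested.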

How the data were processed

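The deposited file is a table of raw whole-number counts of reads per gene, made by the authors, with no normalization. Reads were processed with fastp 0.22.0 and HTSeq 0.9.1 against build IRGSP-1.0, per the submitters' processing notes. Aligner, annotation release, strand setting and the treatment of reads shared between copies: not given in the sources used here. A gene's count may thus hold reads from an overlapping or antisense neighbour. The columns of all 18 libraries were matched by name. Replicates of the same group differed by a chi-square of at least 23.7 per degree of freedom, so no library was a repeat of another in its group. Libraries of different groups were not compared in this way.

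Genes were kept by filterByExpr (minimum count 10, minimum total 15), leaving 25957. edgeR 4.0.16 in R 4.3.3 fitted 6 group means to all 18 libraries with TMM factors from 0.779 to 1.11, and 10 contrasts were tested. The 12 residual degrees of freedom and a biological coefficient of variation of 37.7% limit the precision. With library size alone the median of all genes would shift by 0.135 (log2) under salt in the FKBP57 knockout, by -0.128 between its controls and those of wild type and by 0.164 in its difference of response. Standard errors were derived from the F statistics.

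Alternatives were DESeq2 1.42.0, RLE factors, no filter, a filter at a mean of 5 CPM, a fit to just the compared groups, a block for replicate number, and each library left out. Leaving out 3 libraries together was chosen after seeing the data. In each class the genes printed by library were the one with the most reads and the one with the largest averaged salt change, and beyond this rule the antenna genes called in the FKBP73 knockout. The members and lists were chosen with earlier results of these data known.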

Additional observations from a re-analysis of the deposited data

How the results depend on the processing

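The counts of members called lower under salt were 1 in the FKBP57 knockout, 5 in the FKBP73 knockout, 1 in wild type and 18 averaged over genotypes. A fit of only the groups compared gave 0 in the FKBP57 knockout, 13 in the FKBP73 knockout and 2 in wild type, where 0.0329%, 14.4% and 8.88% of all genes were called lower. DESeq2 gave 12 in the FKBP73 knockout (8.97% of all genes), 2 in wild type (16%) and 25 averaged over genotypes (26.3%), and averaged over genotypes RLE factors gave 21 (23.6%) and the 5 CPM filter 23 (25.5%). Without the 3 libraries set apart earlier the count was 0 in the FKBP57 knockout (8.97% of all genes) and 10 averaged over genotypes (25.6%). With 1 library left out, the count was 0 to 9 in the FKBP57 knockout and 1 to 7 in the FKBP73 knockout. It was 1 in wild type in every case and 13 to 31 averaged. The shares of all genes called lower were then 0.387% to 5.38%, 2.03% to 4.67%, 3.88% to 13.6% and 18.6% to 24.3%, in that order. The 6 comparisons between genotypes had 0 members called under every alternative run, where at most 1.43% of all genes were called. With 1 library left out the members' median ran from -0.28 to 0.41 for the FKBP73 knockout against wild type under control and from -0.78 to 0.2 for the difference of response of the FKBP57 knockout, both across 0, and it kept its sign in the other 8 comparisons. These shifts are within 0.743, the SD between replicates of the members' mean log2 CPM. Leaving out 1 of 3 libraries could hardly shift a median by more, so this limit does not show that the medians are stable.

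Some uncalled values changed sign. Os12g0420400 in wild type was at -0.1 and ran from -0.37 to 0.1 with 1 library left out, and at 0.13 without the 3 libraries. Without these, Os05g0560000 and Os02g0103800 averaged over genotypes were at 0.07 and 0.26. Os07g0147500 between the FKBP57 knockout and wild type under control was at -0.02, ran from -0.26 to 0.14 with 1 library left out, and was at 0.06 without the 3 libraries. Between the FKBP73 knockout and wild type under salt it ran from -0.45 to 0.01. The cause was not tested.

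The replicate numbers showed no pairing of the libraries as a whole. Deviations of same-numbered libraries correlated at a median of -0.017 over all genes tested (-0.702 to 0.782, over 0.1 in 17 of 45 pairs). For libraries of different numbers the median was 0.026 (-0.807 to 0.78, over 0.1 in 39 of 90 pairs). Of 18 libraries 4 correlated best with a library of their own number. Whether some same-numbered libraries were handled together cannot be told from these values. With the number as a block 4 members were called in the FKBP73 knockout (4.81% of all genes called lower) and 17 averaged over genotypes (19.4%). The mean of at least 5 CPM left out Os08g0119800, so it has no value there.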
